A study of Mus musculus with 24 samples.

Results

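The genes described here build the GABA synapse: enzymes that make and break down GABA, its transporters, the chloride carriers that set its effect, its ionotropic (GABA-A) and metabotropic (GABA-B) receptors, and 2 postsynaptic scaffold genes. The set is a list of 27 mouse symbols, matched through Ensembl gene IDs to GENCODE M21, and a gene with under 10 counts in every library was to be dropped. All 27 were found among the 55401 gene IDs of the count table and 0 were dropped, and 26 of them passed the filter on low counts and were tested, the exception being Gabra6. RNA came from punches of both nuclei accumbens of mice aged 8 to 9 weeks, C57BL/6J or DBA/2J according to the design text, with the strain of each library, the sex and any batch not given in the sources used here. Mice had sham surgery or tibial spared nerve injury (SNI) on the left, a model of lasting neuropathic pain. Each also received an AAV8 vector with the hSyn promoter, which drives expression in neurons, carrying Egfp (named Gfp here) or Mef2c with Egfp, so every group carried a virus and Egfp. The 4 groups had 6 libraries each and are named by surgery and vector: Sham Gfp and Sham Mef2c, and SNI Gfp with SNI Mef2c. Which animals each library came from is not labelled, and the p-values below therefore reflect differences among these libraries, which may be technical.

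GABA is the main inhibitory transmitter of the brain and also the transmitter of the projection neurons that form most of the accumbens. It is made from glutamate by the 2 glutamate decarboxylases, loaded into vesicles, and cleared by plasma membrane transporters into neurons and glia. GABA-A receptors are chloride channels of 5 subunits, whose subunit mix sets where the receptor sits and which drugs act on it, and GABA-B receptors signal through G proteins as a pair of different subunits. MEF2C, the protein of the vector gene, is a transcription factor that responds to neuronal activity.

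Total counts per library lay between 25477019 and 36570108. Levels are library-scaled counts (CPM, with TMM factors), and fold changes are log2 values from a quasi-likelihood fit over all 24 libraries (edgeR), with p-values adjusted by Benjamini and Hochberg over the 23738 genes tested and a threshold of 0.05. Mef2c itself ranged from 139 to 212 CPM in Sham Gfp, 123 to 469 in Sham Mef2c, 133 to 221 in SNI Gfp and 474 to 832 in SNI Mef2c. The injured groups did not overlap, whereas 2 of the libraries labelled Sham Mef2c lay below every Sham Gfp library, so the vector gene checks the labels in the injured mice but not in every sham library. The striatal projection neuron markers were present in all libraries (22 of 22 genes, summed level from 3717 to 10410 CPM). Summed cortical neuron markers ran from 366 to 1637 CPM in 23 libraries and stood at 3102 CPM in SNI Mef2c library 1. In bulk tissue, fewer cells of a type and less RNA per cell cannot be told apart.

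Promoters are shown for the 2 members that changed with the vector, for the 3 members whose promoter holds the MEF2 consensus, and for Gabra4 and Gabrb1, neighbouring subunit genes that start head to head. They are RefSeq sequences of build GRCm38.p6, from 250 bases before to 50 after an annotated start, on the gene's strand, 5′ to 3′. Capitals mark a match to the MEF2 consensus or to CACGTG, the palindrome known as the E-box.
Gabra2, chr5:71095800-71096099, minus strand: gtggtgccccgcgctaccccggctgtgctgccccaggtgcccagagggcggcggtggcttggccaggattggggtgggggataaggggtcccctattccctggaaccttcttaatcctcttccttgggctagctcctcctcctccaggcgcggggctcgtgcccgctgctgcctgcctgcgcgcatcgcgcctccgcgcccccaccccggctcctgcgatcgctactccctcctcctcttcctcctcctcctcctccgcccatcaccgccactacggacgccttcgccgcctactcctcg
Gabbr1, chr17:37045716-37046015, plus strand: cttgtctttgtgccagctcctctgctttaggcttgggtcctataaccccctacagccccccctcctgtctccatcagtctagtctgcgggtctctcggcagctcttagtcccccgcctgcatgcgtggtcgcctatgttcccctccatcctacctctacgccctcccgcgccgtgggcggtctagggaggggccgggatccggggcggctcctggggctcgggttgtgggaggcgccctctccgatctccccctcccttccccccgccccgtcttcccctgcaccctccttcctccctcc
Gabrb2, chr11:42420190-42420489, plus strand: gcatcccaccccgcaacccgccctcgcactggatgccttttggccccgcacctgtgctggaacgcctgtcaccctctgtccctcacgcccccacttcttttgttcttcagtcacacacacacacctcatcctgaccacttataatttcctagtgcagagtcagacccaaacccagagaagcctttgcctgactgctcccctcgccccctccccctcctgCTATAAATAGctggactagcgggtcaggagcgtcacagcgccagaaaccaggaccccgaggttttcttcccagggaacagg
Gabrg1, chr5:70842568-70842867, minus strand: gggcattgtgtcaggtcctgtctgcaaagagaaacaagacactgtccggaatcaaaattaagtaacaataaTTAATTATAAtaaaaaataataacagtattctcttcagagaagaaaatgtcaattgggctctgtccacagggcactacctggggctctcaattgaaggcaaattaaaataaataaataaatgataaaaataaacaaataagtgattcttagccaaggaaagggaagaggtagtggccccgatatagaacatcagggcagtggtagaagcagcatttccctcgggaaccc
Slc12a5, chr2:164967738-164968037, plus strand: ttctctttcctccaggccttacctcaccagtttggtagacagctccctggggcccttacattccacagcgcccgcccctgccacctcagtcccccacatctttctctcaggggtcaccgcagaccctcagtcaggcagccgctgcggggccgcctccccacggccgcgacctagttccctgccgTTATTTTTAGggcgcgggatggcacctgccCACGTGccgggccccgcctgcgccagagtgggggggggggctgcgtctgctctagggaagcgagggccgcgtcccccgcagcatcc
Gabra4, chr5:71658259-71658558, minus strand: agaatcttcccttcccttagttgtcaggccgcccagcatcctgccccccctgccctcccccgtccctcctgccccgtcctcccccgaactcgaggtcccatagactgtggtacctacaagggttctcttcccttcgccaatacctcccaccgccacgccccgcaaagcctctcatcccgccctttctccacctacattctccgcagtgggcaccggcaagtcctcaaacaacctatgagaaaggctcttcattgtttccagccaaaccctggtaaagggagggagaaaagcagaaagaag
Gabrb1, chr5:71657671-71657970, plus strand: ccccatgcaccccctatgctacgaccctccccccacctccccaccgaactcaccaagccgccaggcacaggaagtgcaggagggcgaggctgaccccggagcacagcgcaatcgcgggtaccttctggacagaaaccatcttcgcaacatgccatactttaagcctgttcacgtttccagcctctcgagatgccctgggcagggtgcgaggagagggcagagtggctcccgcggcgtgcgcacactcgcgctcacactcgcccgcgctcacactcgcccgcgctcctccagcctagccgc

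Entries were found for 24 of the 27 members, 31 in all because some genes have several starts. The MEF2 consensus, searched on both strands, was held by 3 of the 31, against 3.19% of all 32851 promoters of that length. In Gabrb2 the match starts 31 bases before the annotated start and includes the TATA box letters TATAAA, in Gabrg1 it starts 179 bases before, and in Slc12a5 it starts 66 bases before, with CACGTG at 36 and no overlap between them. CACGTG was held by 1 of the 31 entries against 7.15% of all promoters, and TGACGTCA, the cyclic AMP response element, by 0 against 1.79%. Neither the Gabra2 nor the Gabbr1 promoter shown holds any of these motifs, and both are rich in G and C (70.0% and 67.3%, against a median of 60.0% over the members' entries and 52.7% over all promoters). These are letter matches in a short window and describe the sequence only.

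Gad2, Gad1, Slc32a1, Slc12a5 and Gabbr1 were among the most abundant members with either length used for scaling. Compared per kilobase of exonic length, with means over the 24 libraries, Gad2 stood first at 126 CPM per kb, above Gabbr1 at 97.3, Gad1 at 90.4, Slc12a5 at 89.6, Slc32a1 at 88.1 and Abat at 79.8. On that scale Gad2 was above its neighbour by more than the spread over libraries, whereas Gabbr1, Gad1, Slc12a5, Slc32a1 and Abat followed each other within 1 SD. Among GABA-A subunits the highest levels per kb were those of Gabrd (28.1), Gabrb2 (27.2), Gabra3 (26.7), Gabra2 (26.3) and Gabra4 (22.5), which did not differ from their neighbours beyond that spread. Gabrb1 (16.6), Gabrg3 (10.3), Gabrg1 (8.62) and Gabra5 (8.44) came lower, and Gabrq (2.15), Gabre (0.576), Gabrr2 (0.411), Gabrr1 (0.191) and Gabra6 (0.055) lowest. This order depends on the length used, since the counts also cover introns. Per kb of the whole gene span, the length behind the deposited FPKM, Slc32a1 came first at 49.5 CPM per kb, before Gabbr1 (25.96), Nlgn2 (23.5), Slc12a5 (17.1), Gad1 (14.1) and Gad2 (10.3). Opposite-strand genes share 25.8% of the exonic bases of Slc32a1 and 8.52% of those of Gad1, with counts that were 15.2% and 5.29% of the member's own, so these 2 levels are uncertain to that extent. Smaller overlaps lie in Gphn (3.92%), Gabra4 (3.22%) and Gabrb1 (0.332%). The steadiest members varied little between libraries: the coefficient of variation over the 24 libraries was 4.92% for Nlgn2, 5.70% for Gabbr1, 7.14% for Slc12a5 and 8.56% for Gabra2. Others varied as much as their mean, with 112% for Gabrq and 106% for both Gabre and Slc6a13.

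**Figure D1:**
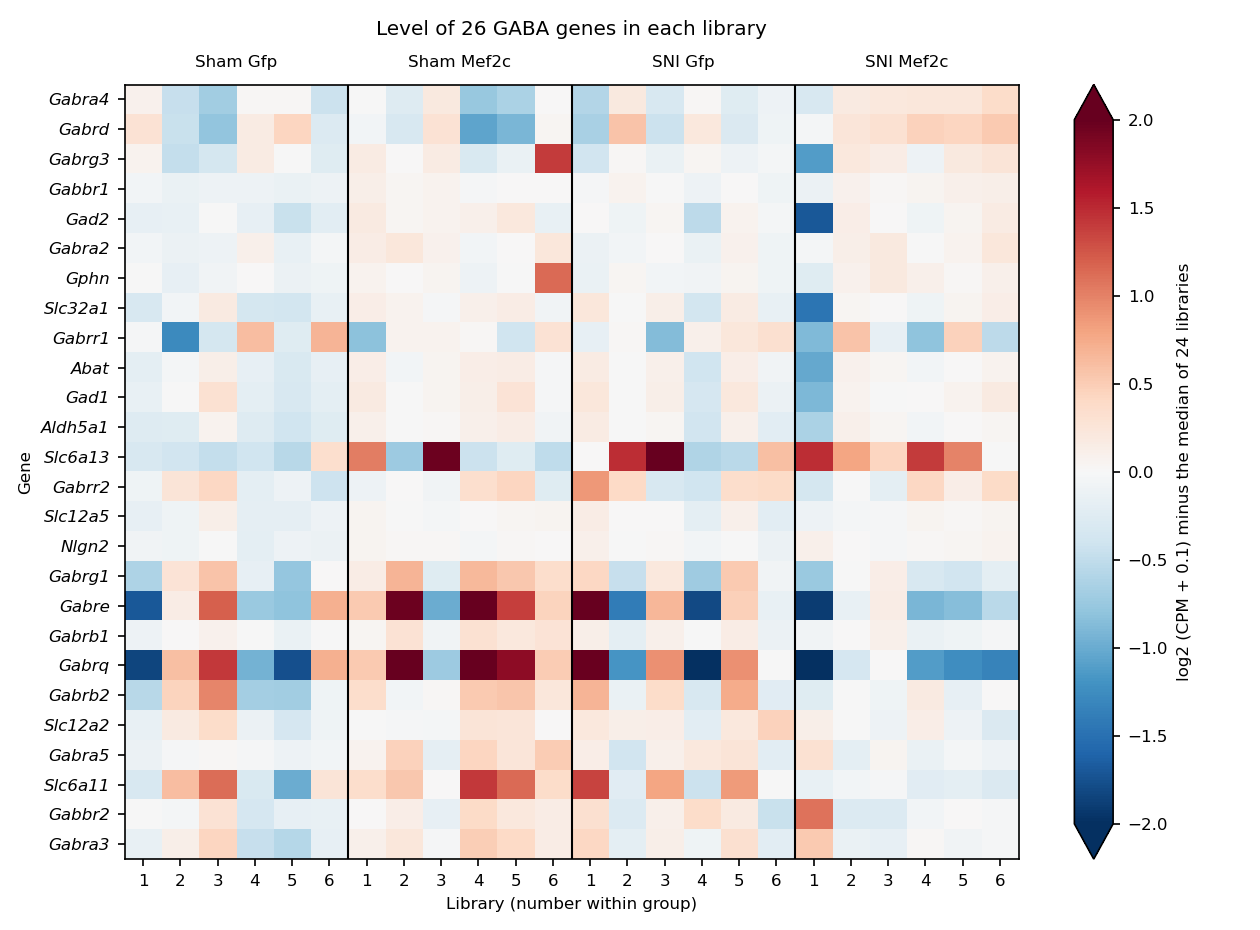
Each cell is the log2 level (CPM with 0.1 added) of 1 of the 26 tested members in 1 library, minus that gene's median over the 24 libraries; columns are libraries by group and the colour scale ends at -2 and 2. Genes are ordered by their correlation with the striatal markers, and SNI Mef2c library 1 stands out by low Gad1, Gad2, Slc32a1 and Abat, while Gabre and Gabrq change from library to library within every group.

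The vector comparison in sham mice sets the Mef2c vector against the Gfp vector without nerve injury. Mef2c itself had a log2 fold change of 0.52 there. Its unadjusted p was under 0.05 (edgeR), but it did not pass after adjustment. Gabbr1 rose in Sham Mef2c, and it was the 1 member of 26 that passed the test. Gabbr1 encodes the GABA-B subunit that binds GABA, and its gene lies at chr17:37045966-37075067 (mm10). Its level in Sham Gfp ran from 692 CPM through a median of 709 to 733, and in Sham Mef2c from 748 through 774 to 823. The 2 groups did not overlap, with 6 of 6 Sham Mef2c libraries above every Sham Gfp library, which 0.758% of all genes tested also showed. The log2 fold change was 0.14 (SE 0.041, edgeR adjusted p = 0.0319), a small change on a gene with little spread. Of all genes tested, 9.41% passed in either direction, 1.48% higher and 7.93% lower, so 1 higher member of 26 lies near that background. The call is not firm: leaving out any 1 of Sham Gfp libraries 2, 5 or 6 or Sham Mef2c libraries 1, 2 or 3 raised the edgeR adjusted p to between 0.0545 and 0.0812, while without SNI Mef2c library 1 and Sham Mef2c library 6 it was 0.00982 and the members called were 3, namely Gabbr1, Aldh5a1 and Gad2 (all higher, as were 2.53% of all genes).

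**Figure D2:**
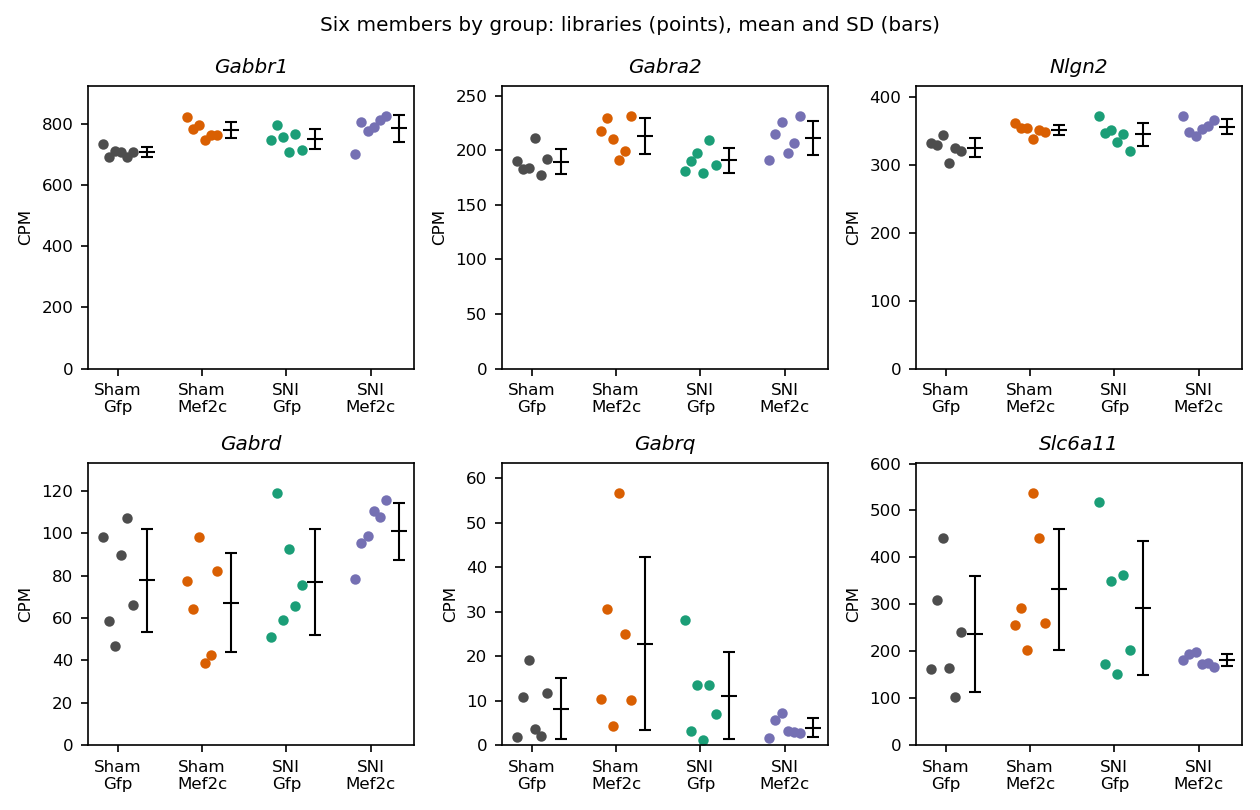
Level in CPM, from 0, of 6 members in each of the 6 libraries of every group (points), with the mean and SD beside them. The Sham Gfp and Sham Mef2c points of Gabbr1 do not overlap, those of Gabra2 and Nlgn2 overlap in part, and Gabrq and Slc6a11 spread widely in every group but SNI Mef2c.

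Of the 26 members, 24 had a positive fold change in that comparison and 9 had an unadjusted p under 0.05 (edgeR), with a median of 0.22 on the log2 scale against 0.02 over all genes. No member but Gabbr1 passed after adjustment, so these are values and not calls. Nearest to the threshold were Gabrb1 (log2 fold change 0.21, edgeR adjusted p = 0.0614), Nlgn2 (0.11, adjusted p = 0.0632), Gabra2 (0.17, adjusted p = 0.0683) and Gabra5 (0.33, adjusted p = 0.0818). Nlgn2, neuroligin 2, is an adhesion molecule of inhibitory synapses, and it ran from 303 CPM through 327 to 344 in Sham Gfp and from 338 through 353 to 361 in Sham Mef2c. Its groups overlapped only at the top of Sham Gfp. Gabra5 has 88.3% of its span overlapped by a more abundant gene on the opposite strand, whose count was 1430% of its own, and since counting ignored strand its value is uncertain. Aldh5a1, succinic semialdehyde dehydrogenase of the GABA shunt, shares 78.2% of its exonic bases with an opposite-strand gene and is uncertain for the same reason.

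Other cell type markers moved in the same comparison. Of 14 interferon genes, 14 fell in Sham Mef2c against Sham Gfp (summed level from 304 to 1174 CPM in Sham Gfp and from 46.7 to 64.8 in Sham Mef2c). Of 16 microglia markers, 12 fell and 1 rose (summed level from 1115 to 2041 CPM, then from 547 to 1113). Of 12 astrocyte markers 3 fell past the threshold, as did 1 of 9 endothelial and 1 of 10 thalamic and cerebellar markers. By sign, 6 astrocyte markers were positive and 6 negative, with a median of 0.02 on the log2 scale. The thalamic and cerebellar list had 7 positive and 3 negative (median 0.34), and the endothelial list 1 positive and 8 negative (median -0.14). Summed astrocyte levels ran from 3565 to 4361 CPM in Sham Gfp and 3504 to 4049 in Sham Mef2c. Endothelial ones ran from 287 to 378 and 262 to 309. Cortical markers summed to between 366 and 1117 CPM in Sham Gfp (median 616) and between 381 and 654 in Sham Mef2c (median 453). None of these 16 passed, but 14 were negative, with a median of -0.56 on the log2 scale. Septal markers summed to between 315 and 389 CPM and then between 347 and 659.5, and none of the 8 passed, with 4 at an unadjusted p under 0.05 (edgeR) and a median of 0.50. None of the marker genes of these lists was at 0 in a whole group. The part of the interferon, microglial, astrocyte, endothelial, thalamic and cerebellar genes in the Gabbr1 result was not tested. With the cortical marker mean as a covariate Gabbr1 had a log2 fold change of 0.13 (edgeR adjusted p = 0.0626), with the septal mean 0.11 (adjusted p = 0.159) and with the striatal mean 0.14 (adjusted p = 0.0043).

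Averaged over both surgeries, 2 of the 26 members, Gabra2 and Gabbr1, were higher with the Mef2c vector and 0 were lower. Over all genes tested, 9.15% passed in this average, 1.28% higher and 7.87% lower. Gabra2 encodes the alpha 2 subunit, which contributes to the benzodiazepine site of synaptic receptors, and lies at chr5:70957597-71095849. Its level ran from 177 CPM through 187 to 211 in Sham Gfp, and from 191 through 214 to 231 in Sham Mef2c. In SNI Gfp it ran from 179 through 188 to 210, and in SNI Mef2c from 191 through 211 to 231. In each surgery 3 of the 6 Mef2c libraries lay above every Gfp library and none lay below all of them. The averaged log2 fold change was 0.16 (SE 0.041, edgeR adjusted p = 0.0121), with 0.17 in sham and 0.15 in injured mice, neither of which passed alone, and an interaction of -0.02 (SE 0.081). Leaving out any single library kept this call. It was lost with scaling by library size alone (adjusted p = 0.0707), with a covariate for the relative level of long genes (0.0768) and with limma on the log2 of FPKM with 1 or 0.1 added (0.0854 and 0.0833). Gabra2 mRNA is known to differ between mouse strains, with C57BL/6J low. The strain of each library is not given, so the part of strain in the Gabra2 value was not tested. Over all libraries the highest Gabra2 level was 1.3 times the lowest.

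For Gabbr1 the averaged log2 fold change was 0.10 (SE 0.029, edgeR adjusted p = 0.0232). Its SNI Gfp libraries ran from 709 CPM through 753 to 796 and its SNI Mef2c libraries from 701 through 798 to 825, so in injured mice the groups overlapped and the fold change was 0.07 (edgeR adjusted p = 0.458). The difference between the sham and the injured vector effect did not pass (interaction -0.07, SE 0.058, edgeR adjusted p = 0.542). The averaged call was lost without any 1 of Sham Gfp 5 or 6, Sham Mef2c 1 or 3, SNI Gfp 6 or SNI Mef2c 5, with adjusted p between 0.0525 and 0.0662. It was also lost with library size alone (0.188), with any count kept (0.0574), with the replicate number as a block (0.0631), with the septal (0.0505) or long-gene covariate (0.0602) and with the same limma fits on FPKM (0.144 and 0.156). Nlgn2 stood just outside the threshold in the average (0.08, adjusted p = 0.0632).

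Among 42 other genes of the pathway (receptor trafficking, GABA-B auxiliary subunits and channels, glutamine transport, chloride regulation), 40 were tested. In the averaged vector comparison 0 rose and 1 fell, where 1.28% of all genes were called higher and 7.87% lower. The gene that fell was Wnk1, a kinase that restrains the chloride extruder KCC2 and activates the importer NKCC1. Wnk1 ran from 301 to 358 CPM in Sham Gfp, 292 to 323 in Sham Mef2c, 297 to 331 in SNI Gfp and 277 to 321 in SNI Mef2c. These ranges overlap. It fell by 0.11 on the log2 scale (SE 0.032, edgeR adjusted p = 0.0248), and the call was lost without Sham Gfp library 2 (adjusted p = 0.0532) or SNI Mef2c library 6 (0.0654), without Sham Mef2c library 6 and SNI Mef2c library 1 together (0.0508), with the replicate number as a block (0.0613) and with the long-gene covariate (0.0563). The 2 carriers themselves, Slc12a5 (KCC2, the extruder of mature neurons) and Slc12a2 (NKCC1, the importer), did not pass, with averaged values of 0.07 (SE 0.043) and -0.06 (SE 0.078). In the other comparisons 0 of these 40 genes passed.

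In injured mice, the vector comparison SNI Mef2c against SNI Gfp called 0 of the 26 members by edgeR, 3 had an unadjusted p under 0.05, and DESeq2 and limma-voom also called 0. Of all genes tested 0.00421% passed, a single gene, which was Mef2c (log2 fold change 1.86, SE 0.26). Members were spread on both sides of 0, with 9 positive and 17 negative, and a median of -0.05 against -0.00044 over all genes. The largest negative values were those of Gabrq (-1.49, SE 0.70) and Gabre (-1.28, SE 0.68).

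The injury comparisons asked whether nerve injury altered the GABA genes under each vector. SNI Gfp against Sham Gfp called 0 of 26 members, as it called 0% of all genes, with 2 members at an unadjusted p under 0.05 and 0 called by DESeq2 but 4 by limma-voom (Aldh5a1, Gabrb2, Nlgn2 and Slc12a5, all higher, as were 4.07% of all genes). Values were positive for 24 of 26 members, with a median of 0.11 against 0.01 over all genes. The sham vector comparison, which shares the Sham Gfp libraries, also had 24 positive members, so the 2 counts are not separate evidence. The largest value belonged to Slc6a13 (GAT2, a GABA and taurine carrier of the meninges and vessels), at 1.68 (SE 0.58, edgeR adjusted p = 0.181). Slc6a13 ran from 3.78 CPM through 4.22 to 7.05 in Sham Gfp and from 3.63 through 7.07 to 51.5 in SNI Gfp. A single library, SNI Gfp 3, gave the highest value, and the other ranges overlapped. In that library the 14 pericyte, smooth muscle and vascular fibroblast markers summed to 520 CPM, against 187 to 308 in the other libraries, and leaving out 4 libraries that stood apart, this one among them, brought the Slc6a13 value to 0.87. No vascular marker of the 14 was at 0 in a whole group, and the part of these markers in the value was not tested further.

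SNI Mef2c against Sham Mef2c called 0 of 26 members and 0% of all genes, and 8 members had an unadjusted p under 0.05 (edgeR; DESeq2 and limma-voom also called 0). Negative values led: 19 of 26 members, with a median of -0.16 against -0.0019 over all genes. Slc6a11, the astrocytic GABA transporter GAT3, ran from 202 CPM through 277 to 538 in Sham Mef2c and from 166 through 179 to 198 in SNI Mef2c. All 6 SNI Mef2c libraries lay below every Sham Mef2c library, a separation that 0.695% of all genes showed in that direction. The log2 fold change was -0.87 (SE 0.32, edgeR adjusted p = 0.229). Beside it, the 12 astrocyte markers summed to 3926 to 5081 CPM in SNI Mef2c and 3504 to 4049 in Sham Mef2c, whereas their mean on the log2 CPM scale was 6.70 ± 0.11 (SD, n = 6) and 6.84 ± 0.14 (SD, n = 6). Of these markers 6 had negative fold changes (lowest -2.16), 0 passed and 2 had an unadjusted p under 0.05 (edgeR). Their part in the Slc6a11 value was not tested. Gabrq, the theta subunit, ran from 4.27 CPM through 17.6 to 56.7 and then from 1.67 through 3.08 to 7.19 (-2.54, SE 0.72). Gabre, the epsilon subunit, gave -2.08 (SE 0.68), whereas Gabrd, the delta subunit of extrasynaptic receptors, ran from 38.7 CPM through 70.9 to 98.5 and from 78.4 through 103 to 116 (0.59, SE 0.24). The groups of Gabrq and of Gabrd overlapped.

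The striatal markers moved beside these values, at a median of 9119 CPM summed in SNI Mef2c and 6413 in Sham Mef2c, with 0 of 22 markers past the test and 21 positive; cortical markers were 16 of 16 positive with 0 past the test, 11 at an unadjusted p under 0.05 (edgeR) and a median of 1.23. With the striatal marker mean as a covariate the values became -0.42 for Slc6a11, -1.15 for Gabrq and 0.44 for Gabrd. With the cortical mean they became -0.40, -1.25 and 0.41. None of these passed by edgeR.

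**Figure D3:**
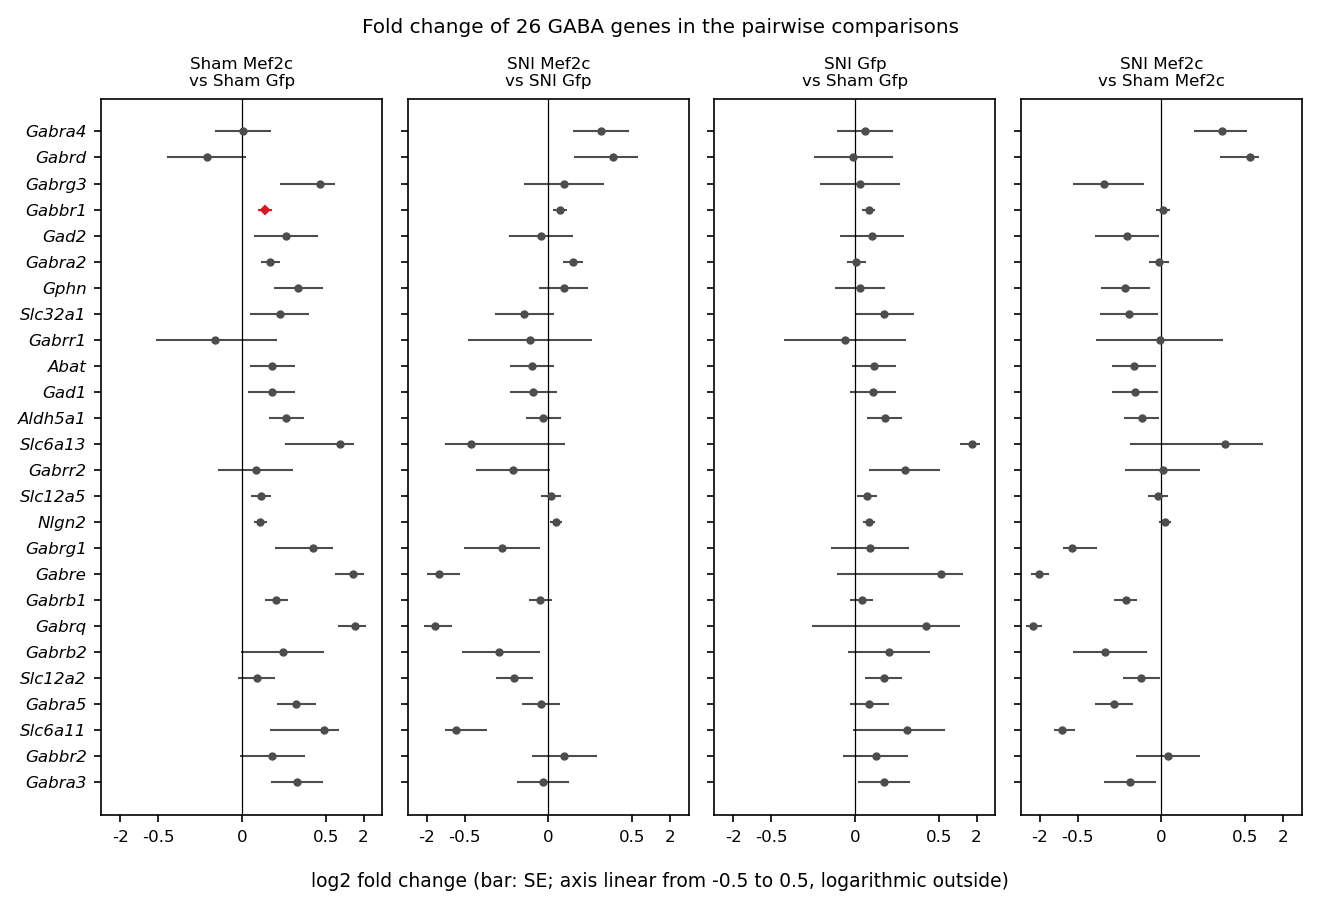
Log2 fold change (point) with its SE (bar) of the 26 tested members in the pairwise comparisons, with a red diamond where the edgeR adjusted p is under 0.05; the axis is linear from -0.5 to 0.5 and logarithmic outside. Gabbr1 in the sham vector panel is the single diamond, and Gabre and Gabrq carry the largest values and the widest bars.

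The interaction of surgery and vector, which asks whether the vector acted differently after injury, called 0 of 26 members and 0% of all genes by edgeR. Unadjusted p under 0.05 was reached by 6 members, and DESeq2 called 0 whereas limma-voom with quality weights called 10, of which 1 was higher and 9 lower, against 8.5% and 8.86% of all genes. Values were negative for 23 of 26 members, with a median of -0.29 against 0.0031 over all genes. The largest were Gabrq at -2.96 (SE 0.98), Gabre at -2.63 (SE 0.94) and Slc6a11 at -1.18 (SE 0.46). The interaction and the comparisons above share their libraries, so their signs are not separate evidence. With the cortical covariate the Gabrq value was -0.81. SNI against sham averaged over both vectors called 0 of 26 members, with 2 at an unadjusted p under 0.05 by edgeR and 0 called by DESeq2 or limma-voom, and a median of -0.02.

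Within groups, many members moved with neuronal markers from library to library: Gabra4 and Gabrd with those of striatal projection neurons, Gabra3 and Slc6a11 against them, and Gabrg1, Gabrq and Gabre against those of cortical neurons. Correlations were taken over the 24 libraries after removing group means, between log2 CPM of a member and the mean of a marker list, with two-sided permutation within groups (100000 resamples, smallest possible p 1e-05), adjusted over all 71214 relations of 23738 genes and 3 lists. Of the 78 relations of the 26 members, 22 passed, and 20 of these had the same sign in every group. Over all genes, 12.9% passed as positive and 14.8% as negative with the striatal markers, and 8.29% and 9.51% with the cortical ones. With the septal markers these shares were 2.48% and 1.52%. How many relations of all genes had the same sign in every group was not counted. Libraries, depth and scaling are shared by both sides of each relation.

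With the striatal projection neuron markers, 4 of 26 members were positively related and 7 negatively; over all genes 12.9% were positive and 14.8% negative. Gabra4, the alpha 4 subunit that pairs with delta outside synapses, was closest (r = 0.925, rho = 0.931, permutation p = 1e-05 for both, adjusted p = 0.000347). Without the 2 libraries farthest from the median it was 0.972. Gabrd followed (r = 0.843, rho = 0.884, permutation p = 1e-05 for both, adjusted p = 0.000347; 0.953 without those 2), and both were related in every group, with r between 0.887 and 0.984. Gabrg3 (r = 0.737, rho = 0.687, permutation p = 0.00063 and 0.00033, adjusted p = 0.00717) and Gabbr1 (r = 0.647, rho = 0.597, permutation p = 0.00794 and 0.00314, adjusted p = 0.0486) were also positive, but their relations did not hold without the 2 libraries (0.577 and 0.465).

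On the other side stood several receptor subunits, the transporter Slc6a11 and the chloride carrier Slc12a2. Gabra3 (r = -0.887, rho = -0.808, permutation p = 1e-05 for both, adjusted p = 0.000347) ran against the striatal markers in every group and without the 2 libraries (-0.843). Slc6a11 did so too (r = -0.693, rho = -0.762, permutation p = 1e-05 and 3e-05, adjusted p = 0.000347; -0.888 without the 2), although within SNI Mef2c alone its r was -0.098. Gabbr2, the GABA-B subunit that couples to the G protein, was at -0.821 (rho = -0.718, permutation p = 0.00015 and 0.00027, adjusted p = 0.00239), and its relation without the 2 libraries (-0.591) did not pass. Gabra5, Slc12a2, Gabrb2 and Gabrq gave r of -0.657, -0.613, -0.529 and -0.514 (permutation p = 0.00066, 0.00141, 0.00301 and 0.00793). Of these, Gabrb2 and Gabrq were stronger without the 2 libraries (-0.725 and -0.844), with a positive r within SNI Mef2c, where library 1 is low in striatal markers. Gabra5 (-0.606) and Slc12a2 (-0.54) did not pass without the 2 libraries. Gabre, at -0.46 over all libraries, passed only without them (-0.847, permutation p = 9e-05, adjusted p = 0.00218). Gabbr1 and Gabbr2, the partners of 1 receptor, had relations of opposite sign over the 24 libraries, but neither passed without the 2 libraries. The r of Gabbr1 was 0.187 within Sham Gfp and 0.14 within SNI Gfp, against 0.799 in Sham Mef2c and 0.961 in SNI Mef2c.

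**Figure D4:**
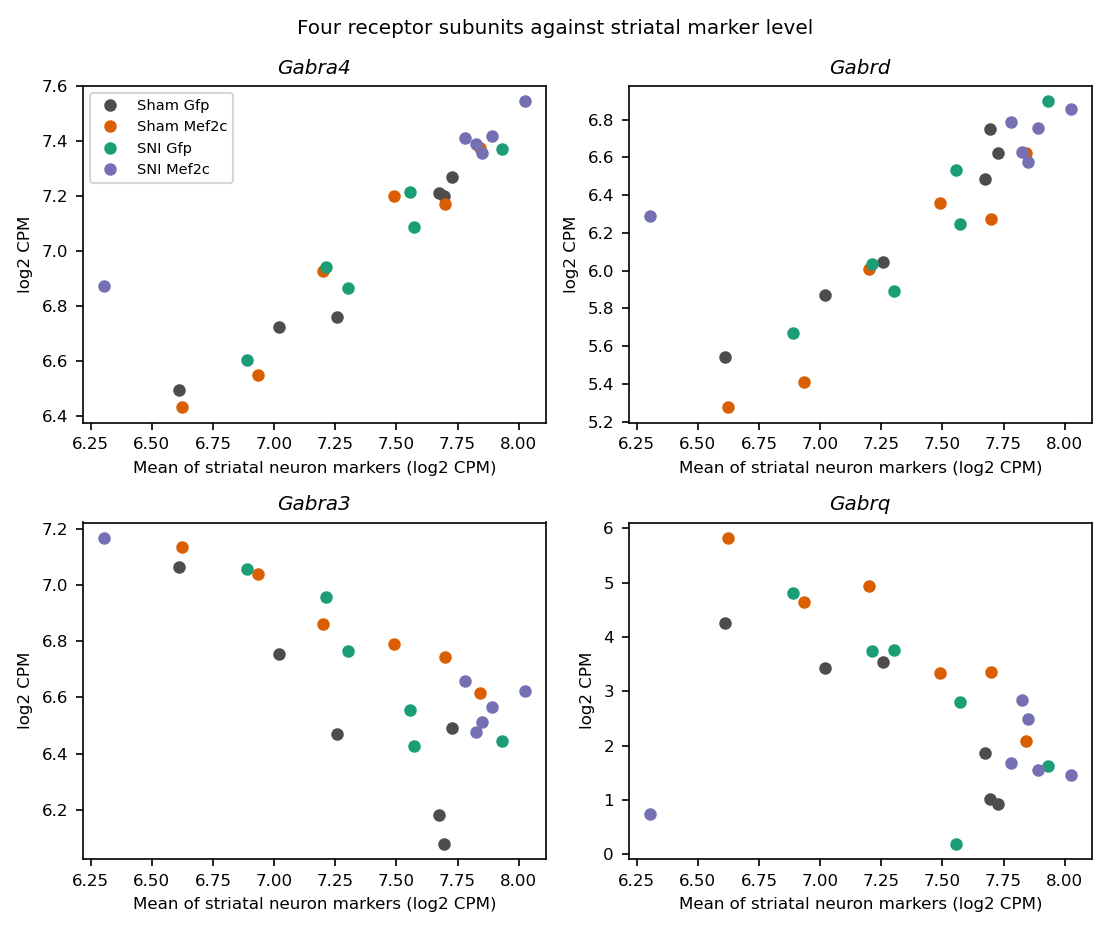
Level (log2 CPM) of Gabra4, Gabrd, Gabra3 and Gabrq against the mean of the striatal markers (log2 CPM), 1 point per library, coloured by group. Gabra4 and Gabrd climb with the markers and Gabra3 and Gabrq decline; SNI Mef2c library 1, at a marker mean of 6.30, lies off the trend for Gabrd and Gabrq.

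Neighbouring genes had different relations. Gabrg1, Gabra2, Gabra4 and Gabrb1 lie in 1 cluster on chromosome 5, and the Gabra4 and Gabrb1 genes start head to head, overlapping by 196 bases; their promoters are printed above. Their r with the striatal markers was -0.409 for Gabrg1, 0.467 for Gabra2, 0.925 for Gabra4 and -0.5 for Gabrb1, and of these only Gabra4 passed; without the 2 libraries farthest from the median, Gabrg1 (-0.772, permutation p = 0.00022, adjusted p = 0.00407) and Gabrb1 (-0.729, permutation p = 0.00081, adjusted p = 0.0101) passed too. On chromosome X, Gabre and Gabrq did go together: of the 6 libraries with the highest Gabrq, 5 were also among the 6 with the highest Gabre, and 5 among the 6 with the highest Slc6a11. Gabrq ranged 49.5 times from its lowest to its highest library.

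With the cortical neuron markers, 10 of 26 members were negatively related and 0 positively, against 9.51% negative and 8.29% positive over all genes. Lower in cortex-rich libraries were the enzymes Gad1 (r = -0.704, rho = -0.575, permutation p = 0.00103 and 0.00506, adjusted p = 0.0105), Gad2 (r = -0.687, rho = -0.619, permutation p = 0.00028 and 0.00023, adjusted p = 0.00385), Abat (GABA transaminase, r = -0.758) and Aldh5a1 (-0.744), and the vesicular transporter Slc32a1 (-0.708). Of these 5, only Abat passed without the 2 most distant libraries, SNI Mef2c 1 and SNI Gfp 4. Gad1, Gad2, Slc32a1 and Aldh5a1 did not pass without them (-0.428, -0.529, -0.553 and -0.462), but each was negative in all 4 groups. Within Sham Gfp, which holds neither library, the r of these members was -0.649, -0.6, -0.788 and -0.517. In SNI Mef2c library 1 Gad1 stood at 368 CPM and Gad2 at 240, where the other 23 libraries ran from 549 to 853 and from 538 to 902. Gabrg1 (r = -0.832), Gabrq (-0.826), Gabre (-0.763) and Slc6a11 (-0.633) held without both libraries, at -0.796, -0.8, -0.707 and -0.688. Gabrb2 (-0.57) did not pass without them. Leaving out both libraries also brought other members past the threshold: Gabrd (0.744, permutation p = 1e-05, adjusted p = 0.000533), Gabra4 (0.691, permutation p = 0.00028, adjusted p = 0.0048) and Gabrg3 (0.513, permutation p = 0.00468, adjusted p = 0.0357) on the positive side and Gabrb1 (-0.606, permutation p = 0.00173, adjusted p = 0.0175) on the negative side. With the septal markers only Gabre was related (r = 0.54, rho = 0.584, permutation p = 0.00648 and 0.00444, adjusted p = 0.0419), against 2.48% of all genes positive and 1.52% negative, and not without the 2 most distant libraries (0.51).

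**Figure D5:**
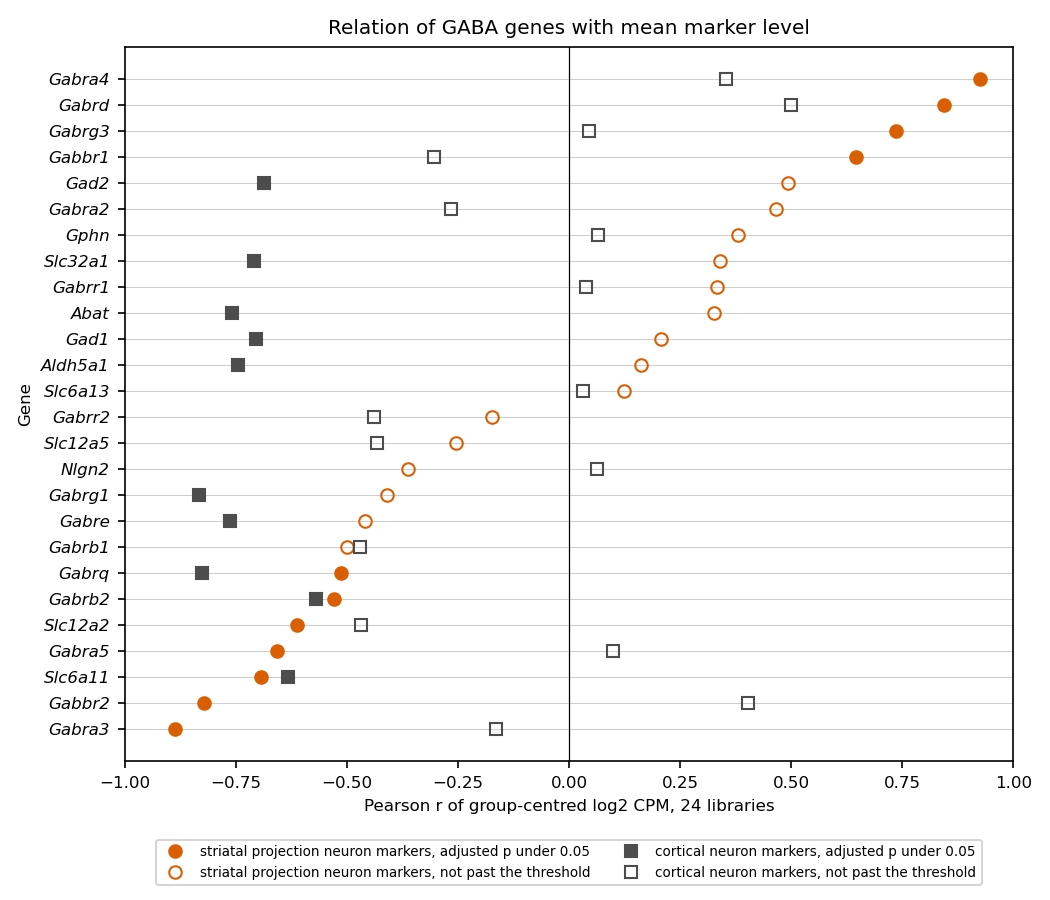
Pearson r over 24 libraries, group means removed, of each tested member with the mean of striatal (circles) and cortical (squares) markers; filled symbols have a permutation p adjusted over all genes and 3 lists under 0.05. Gabra4 and Gabrd lie at the far right for striatal markers and Gabra3 at the far left, while all the filled squares lie left of 0.

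The remaining members were low or steady. Gabrr1 and Gabrr2, the rho subunits best known from the retina, ran from 0.128 to 0.79 CPM and from 0.564 to 1.53 CPM. Gphn, gephyrin, which anchors receptors under inhibitory synapses, ran from 110 to 151 CPM in 23 libraries and stood at 287 in Sham Mef2c library 6, where Gabrg3 was also highest (315 CPM). In that library the 377 genes longer than 400000 bases lay 0.48 above the 18235 genes under 50000 bases on the log2 scale, relative to the median library, against -0.092 to 0.042 in the other 23. Without it and SNI Mef2c library 1 the sham vector values of Gphn and Gabrg3 went from 0.34 to 0.09 and from 0.46 to 0.12. Gabra6, the subunit typical of cerebellar granule cells, had 93 counts in all, 82 of them in Sham Mef2c library 6 and 0 in 16 libraries, which allows up to 0.118 CPM there by counting error alone (3 counts). The cerebellar markers Fat2 and Cbln3 were also highest in that library (2.95 and 2.34 CPM). Their whole list of 12 thalamic and cerebellar markers summed to 140 CPM there, inside the range of 95.6 to 189 CPM over Sham Mef2c. It summed to 89.0 to 200 CPM over the other groups. Whether that library holds cerebellar tissue was not tested.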

How the data were processed

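The authors deposited raw counts per gene and FPKM for 24 libraries of a stranded mRNA kit; per the submitters' processing notes the build was mm10 and the counter featureCounts, while aligner and annotation are not named there. The deposited FPKM equalled count over library total and gene length in 100% of values above 0 (relative tolerance 1e-06), with the length of the whole gene span for 27 of 27 members. An enclosing gene had at least the counts of a gene inside it in every library in 1300 of 1300 opposite-strand pairs with at least 1000 counts, so counting covered introns and ignored strand, and the members that overlap another gene are given with the size of the overlap. Of 55401 IDs, 55141 matched GENCODE M21. Library pairs within a group differed beyond sampling noise (smallest chi-square per degree of freedom 3.22 over 60 pairs).

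Counts were fitted with edgeR 4.0.16 in R 4.3.3 (filterByExpr, TMM, robust quasi-likelihood, 1 coefficient per group, 20 residual degrees of freedom), after a test on simulated data. Log2 CPM for marker means had a prior count of 2. Fold changes carry an SE of the fold change divided by the square root of F. Alternatives were RLE or no scaling factors, other filters, DESeq2 1.42.0, limma-voom and limma-trend 3.58.1 (the last on log2 of FPKM with 1 or 0.1 added), the replicate number as a block, compared groups alone, marker covariates and leaving out each library. Relations with markers were adjusted over all genes, in place of the members alone as first planned. Every member is named, with values per group for those past the threshold; of the other pathway genes, up to 6 past it. The members, lists and tests were chosen with earlier results of these data known, and leaving out 2 or 4 libraries together and the covariate for long genes were chosen after seeing the data. No protein sequence was used here.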

Additional observations from a re-analysis of the deposited data

Results flagged for a closer look

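Within groups of 6, 20 of 108 gene and group combinations had a highest or lowest library whose gap to its neighbour exceeded Dixon's 95% critical value (0.625 of the range). Chance alone gives this in about 1 in 20 for normally distributed values. The combinations are not independent, since the members share the libraries. The flags fall in 8 libraries, and 9 of them in SNI Mef2c library 1. There Gad1 (368 CPM), Gad2 (240), Slc32a1 (92.7), Abat (313), Aldh5a1 (72.6), Gabra4 (117) and Gabrg3 (55.3) were far below the other 5 libraries of the group, and Gabbr2 (335) and Gabra3 (144) far above them. The same library had the highest cortical marker mean (5.87 on the log2 CPM scale) and the lowest striatal mean (6.30) of all 24.

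Sham Mef2c library 6 was far above its group in Gabrg3 (315 CPM), Gphn (287) and Gabra6 (2.95). SNI Gfp library 4 was low in Gad2 (538 CPM), with a cortical marker mean of 5.26, the highest of its group. SNI Gfp library 3 was high in Slc6a13 (51.5 CPM), as was Sham Gfp library 6 at a far lower level (7.05). Sham Gfp library 3 was high in Slc12a5 (735 CPM) and Aldh5a1 (119). SNI Gfp library 1 was high in Gabre (9.18 CPM). Gabra6 was highest in SNI Gfp library 1 (0.0356 CPM, 1 count) and SNI Mef2c library 3 (0.0842 CPM, 3 counts), the other libraries of both groups being at 0. With the others at 0 the gap fills the whole range, so any count above 0 gives these Gabra6 flags.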

How the results depend on the processing

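The member counts of SNI Mef2c against SNI Gfp, SNI Mef2c against Sham Mef2c and SNI against sham averaged were 0 under every alternative run. The 1 member called in Sham Mef2c against Sham Gfp became 0 with library size alone, with any count kept, with both FPKM fits, with the replicate block, with the cortical or septal covariate and with the long-gene covariate. It became 3 with the compared groups alone and without 2 or 4 libraries that stood apart (the other libraries giving the spread). It became 4 with DESeq2, 6 with the striatal covariate and 11 with limma-voom, and leaving out single libraries gave 0 to 6. The share of all genes called higher, 1.48% in the main fit, moved too. It was 1.32% with the compared groups alone, and 2.53% and 2.3% without 2 and 4 libraries. With DESeq2 it was 2.4%, with the striatal covariate 3.63% and with limma-voom 7.86%. The 2 members called in the averaged vector comparison became 0 with library size alone, both FPKM fits and the long-gene covariate. They became 1 with any count kept, with the replicate block and with the septal covariate, where 0.259%, 0.758% and 1.66% of all genes were called higher. They became 4 with limma-voom, with the striatal covariate and without 2 libraries, where the shares were 3.24%, 2.98% and 2.98%. In the main fit the share was 1.28%, and leaving out single libraries gave 1 to 3 members. By limma-voom 4 members were called in SNI Gfp against Sham Gfp and 10 in the interaction (main 0 for both), where 8.86% of all genes were called lower. Relations with markers numbered 22, 27 by Spearman and 18 without the 2 most distant libraries, of which 11 were shared with the 22. The sham vector value of Gphn turned to -0.0615 with the long-gene covariate; the causes of these changes were not tested.

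Gabbr1 kept its direction in 40 of 40 settings of the sham vector comparison, between 0.11 and 0.16, with edgeR, DESeq2 or limma adjusted p from 0.0023 to 0.159, and its call in 26. Gabra2 kept its direction in 39 of 39 settings of the average (adjusted p from 0.00258 to 0.0854) and its call in 35. Replicate numbers did not pair the samples: same-numbered libraries of different groups had a mean correlation of -0.043 over 36 pairs, and 1 of 24 libraries correlated best with its own number. Counts of low genes such as Gabra6, Gabrr1 and Gabre limit their precision.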
